A study of Homo sapiens with 12 samples.

Results

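The genes described here make, move and break down the catecholamines dopamine and noradrenaline, and they were chosen by name as 9 rows of a table of 27514 genes: TH, DDC, DBH, GCH1, SLC18A1, SLC18A2, SLC6A2, MAOA and MAOB. RNA had been sequenced from 12 samples of IMR32, a line of human neuroblastoma cells with amplified MYCN. A small interfering RNA (siRNA) was introduced by electroporation and RNA was taken 72 h later, in 4 groups of 3 samples. The groups received a control siRNA (siCtrl), an siRNA to the transcription factor gene MYCN (siMYCN), one to the transcription factor gene HAND2 (siHAND2), or both siRNAs (siMYCN+siHAND2, below the combined knockdown). The sample titles give each target the same numbered siRNA throughout. Effects of an siRNA sequence on other genes cannot be told apart from loss of its target. All groups are the same cell line in the same medium, and the sources used here do not say whether the 3 samples of a group came from separate cultures, so p-values measure only the spread between these samples.

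Catecholamines are made from tyrosine in steps. Tyrosine hydroxylase (TH) makes L-DOPA and needs the cofactor tetrahydrobiopterin, whose synthesis starts with GCH1. DDC turns L-DOPA into dopamine, DBH turns dopamine into noradrenaline inside vesicles, SLC18A1 and SLC18A2 fill the vesicles, SLC6A2 takes noradrenaline back up at the cell surface, and the mitochondrial enzymes MAOA and MAOB oxidise it. Neuroblastomas arise from the sympathoadrenal lineage and commonly produce catecholamines, whose breakdown products are measured in the diagnosis of the disease.

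The 4 groups differed in more than the targeted genes, which bears on every value below. MYCN fell from 1009 ± 42.6 CPM (reads of a gene scaled to library size; mean ± SD, n = 3 in every group) in siCtrl to 682 ± 22.8 with siMYCN and 482 ± 64.3 with both siRNAs, and HAND2 from 239 ± 15.3 to 62.3 ± 7.06 with siHAND2 and 73.5 ± 11.1 with both siRNAs. HAND2 was higher with siMYCN, at 326 ± 7.50 CPM (limma on log2(CPM + 1), Benjamini-Hochberg adjusted p = 0.00618). Between both siRNAs and siMYCN alone, MYCN differed by -0.51 on the log2 scale (limma, adjusted p = 0.000701), or -0.16 after rescaling as described below (adjusted p = 0.0535). HAND2 overlaps HAND2-AS1 on the other strand, which averaged 120 CPM in siCtrl and 111 with siHAND2, and MYCN overlaps MYCNOS, at 18.4 CPM in siCtrl and 26.1 with siMYCN. Whether counting used strand is not given in the sources used here, so reads of such pairs may not be separable. Estimated depth was 31.6 to 64.2 M reads per sample. The listed genes held 65.1 ± 0.736% of reads in siCtrl and 51.4 ± 7.04% with both siRNAs, where the samples ran from 44.3 to 58.4%. The median log2 difference of all genes tested from siCtrl was 0.0056 with siMYCN, -0.14 with siHAND2 and -0.28 with both siRNAs, and after each sample was rescaled by the median ratio of its genes it was 0.014, 0.012 and 0.045. Values are on the deposited scale unless called rescaled. The 8 markers of adrenergic neuroblasts, HAND2 among them, each averaged at least 1 CPM in every group and summed to 765 to 820 CPM in siCtrl, 1027 to 1059 with siMYCN, 721 to 768 with siHAND2 and 570 to 869 with both siRNAs. The 8 mesenchymal markers summed to 335 to 356 CPM in siCtrl, 295 to 342 with siMYCN, 164 to 191 with siHAND2 and 105 to 175 with both siRNAs, with PRRX1 at 0 in all samples, while 5 Schwann cell markers summed to at most 3.61 CPM and 4 immune and endothelial markers to at most 1.01. The part of these shifts in the results below was not tested. In such bulk samples, fewer cells expressing a gene and less RNA per cell cannot be told apart.

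Of the 9 genes, 6 passed the filter of a mean of at least 1 CPM over all samples (GCH1, DDC, DBH, SLC18A2, SLC6A2 and MAOA). TH lay below it with a mean of 0.782 CPM, and SLC18A1 and MAOB were at or next to 0. Per length, in siCtrl, DDC was highest at 7.03 CPM per kb of annotated exon, followed by GCH1 at 6.29, SLC6A2 at 2.13, MAOA at 1.96, SLC18A2 at 1.62, DBH at 0.965 and TH at 0.0378. The exon length is that of all annotated transcripts together, 13.0 kb for MAOA against 2.75 to 8.04 kb for the other 6 genes expressed here, so levels per kb are coarse. GCH1 led with siMYCN at 14.8 CPM per kb, ahead of DDC at 11.7. With siHAND2, DDC led again at 10.6 CPM per kb, and TH and DBH stood level at 0.338 each. With both siRNAs TH, at 0.498 CPM per kb, lay above DBH at 0.343.

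**Figure D1:**
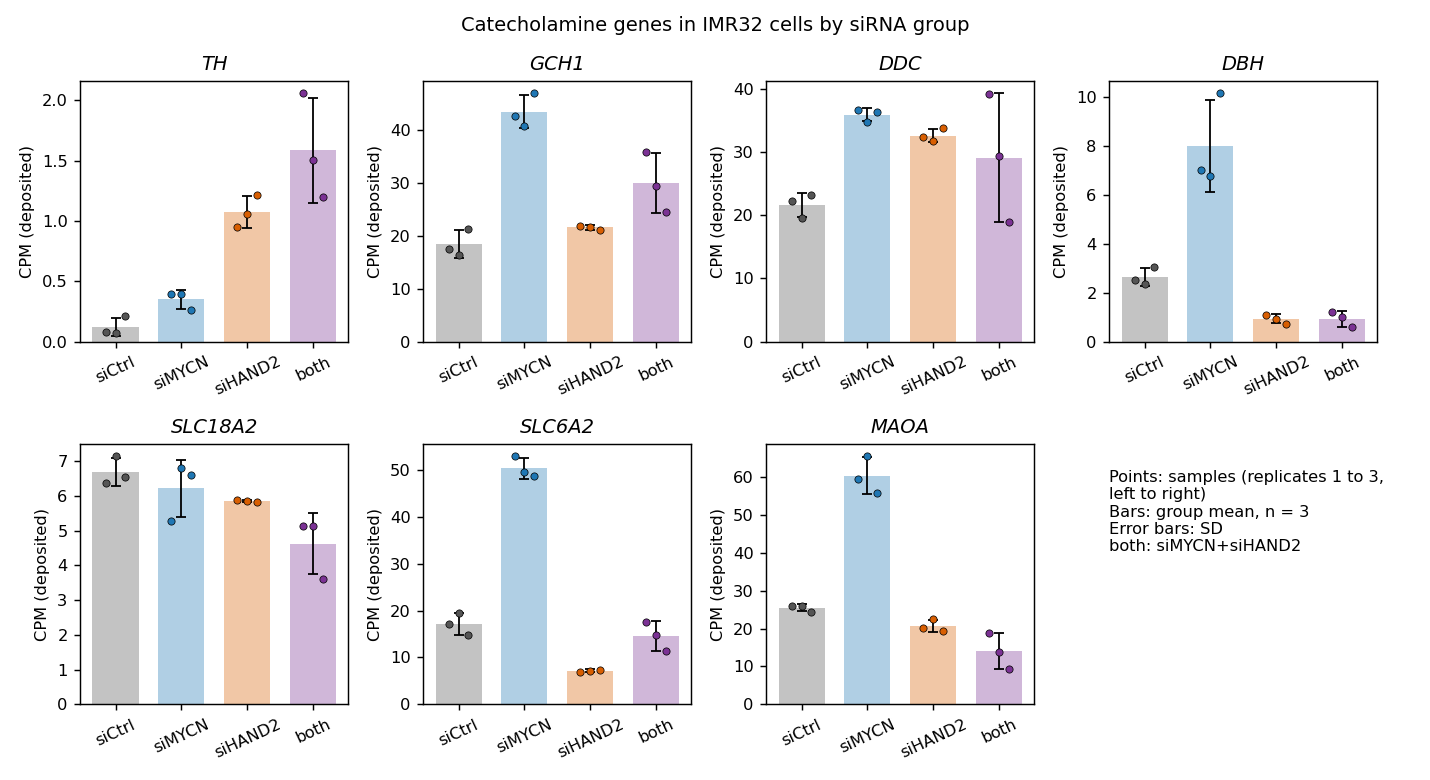
Deposited CPM (vertical axes, each from 0) of the 7 detected genes in the 4 siRNA groups; points are samples, bars are means and error bars SD (n = 3), and "both" is siMYCN+siHAND2. GCH1, DBH, SLC6A2 and MAOA are highest with siMYCN in every sample, TH is highest in both groups with the HAND2 siRNA, and SLC18A2 varies least.

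With the MYCN siRNA, 5 of the 6 tested genes were higher and none was lower, spanning synthesis (GCH1, DDC, DBH), reuptake (SLC6A2) and breakdown (MAOA). Their increases over siCtrl lay between 1.66-fold for DDC and 3.02-fold for DBH, and SLC18A2, which loads vesicles, did not pass the test. With the HAND2 siRNA the genes went in different directions. DBH and SLC6A2 fell to 35.1% and 42.1% of siCtrl, while DDC rose 1.50-fold and TH rose 8.94-fold (14.2-fold without siCtrl replicate 3). Among all 12680 genes tested, 33.7% were called (adjusted p under 0.05) between siMYCN and siCtrl, 42.7% between siHAND2 and siCtrl and 67.4% between the combined knockdown and siCtrl. The 6 genes gave 5 calls, 3 calls (1 higher, 2 lower) and 5 calls (2 higher, 3 lower), of which the last 2 counts lie near the background. The higher direction alone held 17.4% of all genes tested with siMYCN. The median difference of the 6 genes was 1.20 on the log2 scale with siMYCN, against 0.0056 for all genes tested, and with siHAND2 it was -0.23 against -0.14. With both siRNAs it was -0.35 against -0.28, or -0.026 against 0.045 rescaled. All 3 comparisons share the siCtrl samples.

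**Figure D2:**
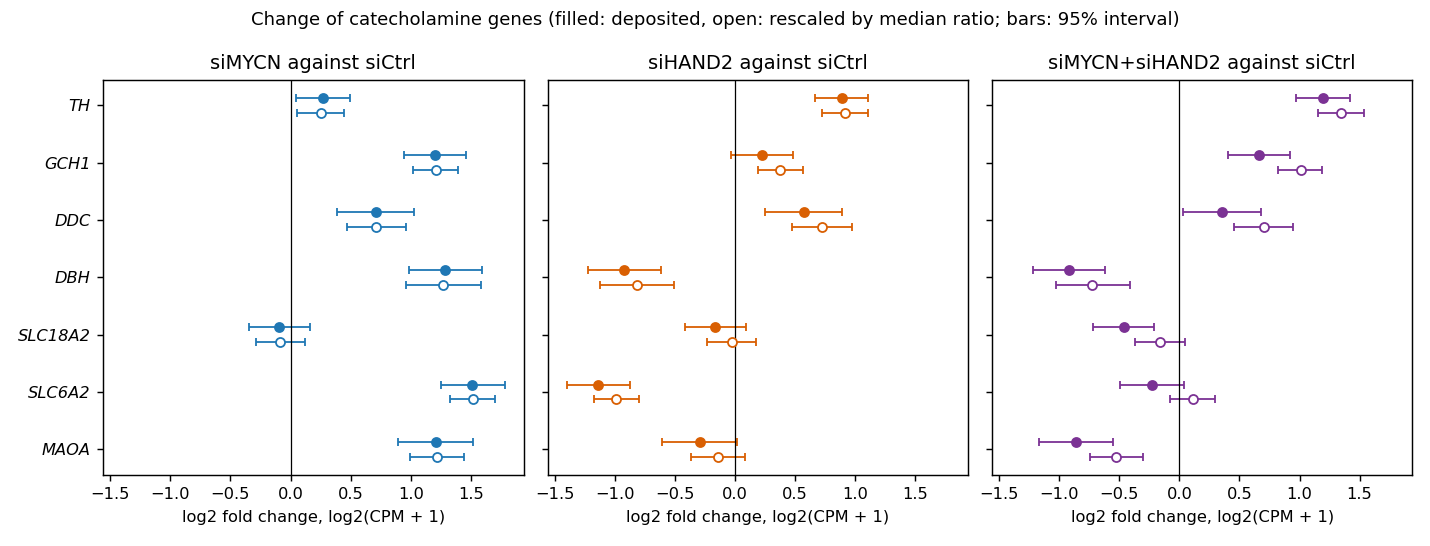
Log2 fold change against siCtrl (horizontal axis, log2(CPM + 1) scale) of the 7 detected genes with siMYCN, siHAND2 and siMYCN+siHAND2; filled points use deposited CPM, open points rescaled CPM, and bars are 95% intervals from limma. Rescaling hardly moves the siMYCN values, and with both siRNAs it moves every gene upward, SLC6A2 from -0.23 to 0.11.

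TH (chr11:2185159-2193036, minus strand, hg19), the enzyme that limits the rate of catecholamine synthesis, was barely detected in control cells and rose with the HAND2 siRNA. The siCtrl samples had 0.0827, 0.0686 and 0.209 CPM, an estimated 3, 3 and 12 reads. The siMYCN samples had 0.396, 0.395 and 0.259 CPM (15, 16 and 11 reads). The siHAND2 samples had 0.950, 1.06 and 1.21 CPM (30, 36 and 51 reads), and the combined knockdown 2.06, 1.50 and 1.20 CPM (132, 58 and 49 reads). All samples with the HAND2 siRNA exceeded all samples without it, every siMYCN sample exceeded every siCtrl sample, and siHAND2 and the combined knockdown overlapped, though not when rescaled. The ratio of mean CPM to siCtrl rested in part on siCtrl replicate 3, without which it was 4.63 in place of 2.91 with siMYCN, 14.2 in place of 8.94 with siHAND2 and 20.9 in place of 13.2 with both siRNAs. In pooled reads per depth, the ratio to siCtrl was 2.65 with siMYCN (95% exact binomial interval 1.50 to 4.90), 8.31 with siHAND2 (5.03 to 14.5) and 12.7 with both siRNAs (7.86 to 21.8), intervals that cover counting error only.

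Because TH missed the filter, it was tested in a fit of the 15994 genes with a mean of at least 0.1 CPM, chosen after the data were seen. The log2(CPM + 1) difference from siCtrl was 0.27 ± 0.108 (SE) with siMYCN (limma, adjusted p = 0.0664), 0.89 ± 0.108 with siHAND2 (adjusted p = 1.05e-06) and 1.20 ± 0.108 with both siRNAs (adjusted p = 2.47e-09). The pseudocount of 1 holds these well under the ratios of CPM. TH with siMYCN passed the test on rescaled values (0.25, adjusted p = 0.0412), on deposited values with a pseudocount of 0.1 (1.07, adjusted p = 0.00393), and without combined-knockdown replicate 1 or 3 (adjusted p = 0.0266 and 0.0328). With the MYCN siRNA present, TH was higher with the HAND2 siRNA than without it by 0.93 ± 0.108 (adjusted p = 3.09e-07), and siMYCN lay below siHAND2 by 0.62 (difference -0.62, adjusted p = 0.000132). The combined knockdown exceeded siHAND2 by 0.31 ± 0.108 (adjusted p = 0.0331), a call lost without combined-knockdown replicate 1 (0.18, adjusted p = 0.16) or 2 (adjusted p = 0.0569), without siHAND2 replicate 1 or 2 (adjusted p = 0.113 and 0.0787), with no filter (adjusted p = 0.122) and with a pseudocount of 0.1 (0.49, adjusted p = 0.165). Rescaled, it was 0.43 (adjusted p = 0.00178). The effect of the HAND2 siRNA on TH with the MYCN siRNA minus that without it was 0.036 (95% interval -0.281 to 0.353, adjusted p = 0.912). This value depends on the pseudocount, being -0.58 with a pseudocount of 0.1 (adjusted p = 0.397). In ratios of mean CPM the HAND2 siRNA effect on TH was 8.94-fold without the MYCN siRNA and 4.53-fold with it. In this wider fit the shares of genes called were 28.2% for siMYCN, 36.3% for siHAND2 and 60.4% for the combined knockdown against siCtrl, 50.6% and 32.8% for the combined knockdown against siMYCN and siHAND2, 29.8% between siMYCN and siHAND2, and 3.07% for the difference of effects.

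GCH1 (chr14:55308724-55369543, minus strand), which makes the first intermediate of tetrahydrobiopterin, was highest with siMYCN and next highest with both siRNAs. It measured 17.4, 16.4 and 21.3 CPM in siCtrl, 42.6, 40.7 and 46.8 with siMYCN, 21.9, 21.7 and 21.0 with siHAND2, and 35.8, 29.4 and 24.5 with both siRNAs. The siMYCN and combined samples did not overlap with siCtrl or with each other, whereas siHAND2 overlapped with siCtrl. The log2 difference from siCtrl was 1.20 ± 0.126 with siMYCN (adjusted p = 7.4e-08), 0.22 ± 0.126 with siHAND2 (adjusted p = 0.155) and 0.66 ± 0.126 with both siRNAs (adjusted p = 5.55e-05; all limma). Rescaled, the siHAND2 difference was 0.38 with adjusted p = 0.00233, and the groups no longer overlapped.

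DDC (chr7:50526134-50633155, minus strand), the decarboxylase that yields dopamine, was higher in each single knockdown. Its siCtrl samples had 22.2, 19.6 and 23.2 CPM, against 36.6, 34.8 and 36.4 with siMYCN and 32.4, 31.7 and 33.8 with siHAND2. Neither single knockdown overlapped with siCtrl, and the log2 differences were 0.71 ± 0.157 (limma, adjusted p = 0.00105) and 0.57 ± 0.157 (adjusted p = 0.0048). Both calls were lost with no filter on low values (adjusted p = 0.0631 and 0.107). With both siRNAs DDC spread from 39.2 through 29.4 to 18.9 CPM, with the lowest sample below every siCtrl sample. That sample, replicate 3, also had the smallest share of reads in listed genes, 44.3%. The difference of 0.36 ± 0.157 was at the edge of the test (limma, adjusted p = 0.0482) and was 0.12 (adjusted p = 0.43) without combined-knockdown replicate 1. The call was also lost without combined-knockdown replicate 2, siCtrl replicate 1 or 2, siHAND2 replicate 2 or any 1 siMYCN sample, and with no filter (adjusted p = 0.272), a pseudocount of 0.1 (adjusted p = 0.0502) or no trend in the variance (adjusted p = 0.0517). Rescaled it was 0.70 ± 0.115 (adjusted p = 7.38e-05) with rescaled values of 39.5, 34.0 and 25.9, all above the siCtrl samples.

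DBH (chr9:136501485-136524467, plus strand), the vesicle enzyme that makes noradrenaline and marks noradrenergic cells, moved in opposite directions in the single knockdowns. It had 2.51, 2.37 and 3.07 CPM in siCtrl and 7.04, 6.77 and 10.2 with siMYCN. With the HAND2 siRNA it had 1.11, 0.942 and 0.738 CPM, and with both siRNAs 1.23, 1.01 and 0.585. All siMYCN samples lay above siCtrl, all samples with the HAND2 siRNA lay below it, and these last 2 groups overlapped. The log2 difference from siCtrl was 1.29 ± 0.147 with siMYCN (limma, adjusted p = 2.57e-07), -0.92 ± 0.147 with siHAND2 (adjusted p = 1.7e-05) and -0.92 ± 0.147 with both siRNAs (adjusted p = 5.4e-06). Between the combined knockdown and siHAND2 the difference was -0.00021 (95% interval -0.303 to 0.303, adjusted p = 0.999), and rescaled 0.090 (-0.22 to 0.399, adjusted p = 0.632). DDC overlaps DDC-AS1 and DBH overlaps DBH-AS1 on the other strand, antisense genes that averaged 0.265 and 0.195 CPM.

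The 250 bases before the DBH start site are shown because DBH had the largest ratio of mean CPM to siCtrl with siMYCN among the 7 detected genes and fell with the HAND2 siRNA, and because HAND2 and MYCN are basic helix-loop-helix proteins, a class that binds E-boxes (CANNTG). The sequence is from RefSeq (promoter table of GRCh38.p14), was found once in GRCh37 at chr9:136501235-136501484 on the plus strand, and carries CANNTG matches in capitals.
DBH: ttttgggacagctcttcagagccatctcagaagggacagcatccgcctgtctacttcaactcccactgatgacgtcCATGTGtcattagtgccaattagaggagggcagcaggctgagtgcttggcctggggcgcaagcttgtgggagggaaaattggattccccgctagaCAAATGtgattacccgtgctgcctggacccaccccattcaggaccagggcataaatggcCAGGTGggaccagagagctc
The 3 matches begin 174, 79 and 20 bases before the start. CANNTG is its own reverse complement as a pattern and occurred in 68.9% of 27305 RefSeq promoter windows of 300 bases (250 before the start and 50 after), so its presence is common. No exact match in these 250 bases was found for CACGTG, the MYC-type box (7.44% of windows, both strands searched), or CATCTG (14.8%). None was found either for the homeodomain-type site TAATTA (4.98%), GATAAG (6.36%) or the cAMP response element TGACGTCA (1.98%). Shorter or altered forms of these motifs were not searched. The printed bases do hold ATTA, the shorter homeodomain core, and TGACGTCC, which differs from TGACGTCA in its last base. The table also held windows for DDC (2 starts), SLC18A2, MAOA and MAOB. The window of 1 DDC start, for a gene that was higher with the HAND2 siRNA, also had 3 CANNTG matches. Of these, 2 overlap and begin 50 and 48 bases before the start, and the third begins at base 45 after it. The windows of the other DDC start and of MAOB had no match to any motif searched. Which DDC start these cells use was not tested. The MAOA window had 1 CANNTG match 163 bases before its start, and SLC18A2 had TGACGTCA 48 bases before its start. A match is a description of letters and shows no binding.

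SLC18A2 (chr10:119000584-119038942, plus strand), the vesicular monoamine transporter of neurons, varied least. Its samples had 6.36, 7.14 and 6.55 CPM in siCtrl, 5.28, 6.79 and 6.59 with siMYCN, 5.89, 5.86 and 5.81 with siHAND2, and 5.13, 5.13 and 3.61 with both siRNAs. siMYCN overlapped with siCtrl, and siHAND2 and the combined samples lay below it, whereas after rescaling both overlapped with siCtrl. The log2 difference was -0.096 with siMYCN (95% interval -0.349 to 0.158; limma, adjusted p = 0.587), -0.16 with siHAND2 (-0.418 to 0.0887, adjusted p = 0.292) and -0.46 with both siRNAs (-0.716 to -0.209, adjusted p = 0.00188). Rescaled, the last was -0.16 (-0.366 to 0.045, adjusted p = 0.149), so the call depends on the scale. SLC18A1 (chr8:20002366-20040718, minus strand), the vesicular transporter of chromaffin cells, had 1 estimated read in each of 2 siMYCN samples and 0 elsewhere. A count of 0 allows up to 3 reads, 0.0468 to 0.0949 CPM at these depths.

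SLC6A2 (chr16:55689542-55740105, plus strand), the noradrenaline transporter, which also carries the tracer MIBG (meta-iodobenzylguanidine) into neuroblastoma cells, had the largest log2(CPM + 1) difference of the 6 tested genes between the single knockdowns. It measured 17.0, 19.5 and 14.7 CPM in siCtrl, 52.9, 49.5 and 48.7 with siMYCN, 6.93, 7.21 and 7.43 with siHAND2, and 17.6, 14.7 and 11.4 with both siRNAs. siCtrl and the combined knockdown overlapped, with siMYCN above both and siHAND2 below both. The log2 difference from siCtrl was 1.51 ± 0.129 with siMYCN (limma, adjusted p = 3.09e-09) and -1.14 ± 0.129 with siHAND2 (adjusted p = 1.18e-07). With both siRNAs it was -0.23 (95% interval -0.493 to 0.0373, adjusted p = 0.12), and rescaled it had the other sign, 0.11 (-0.0758 to 0.295, adjusted p = 0.271). Without combined-knockdown replicate 1 the deposited difference passed the test (-0.37, adjusted p = 0.00962).

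MAOA (chrX:43514155-43606072, plus strand), which oxidises noradrenaline and serotonin, rose with the MYCN siRNA alone and fell with both siRNAs. The siCtrl samples had 26.0, 26.0 and 24.4 CPM and the siMYCN samples 59.5, 65.5 and 55.8. The siHAND2 samples had 20.2, 22.5 and 19.3 CPM, and the combined samples 18.9, 13.9 and 9.43. No pair of groups overlapped, and the order was siMYCN, siCtrl, siHAND2 and combined knockdown. Rescaled, siHAND2 and siCtrl overlapped. The log2 difference from siCtrl was 1.21 ± 0.151 with siMYCN (limma, adjusted p = 9.63e-07), -0.29 ± 0.151 with siHAND2 (adjusted p = 0.119; rescaled -0.14, adjusted p = 0.28) and -0.86 ± 0.151 with both siRNAs (adjusted p = 1.83e-05; rescaled -0.52, adjusted p = 0.000399). The siHAND2 difference passed the test when siCtrl and siHAND2 were fitted alone (adjusted p = 0.00568) or without combined-knockdown replicate 1 or 3 (adjusted p = 0.0372 and 0.0151). MAOB (chrX:43625857-43741722, minus strand), the other monoamine oxidase, was at 0 in all 12 samples.

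The knockdowns were then compared with each other. With the MYCN siRNA present, 5 of 6 tested genes were lower with the HAND2 siRNA than without it, where 58.9% of all genes tested were called and 50% were called lower. DBH differed by -2.21 ± 0.147 on the log2 scale (limma, adjusted p = 5.19e-12), MAOA by -2.07 ± 0.151 (adjusted p = 2.16e-11) and SLC6A2 by -1.74 ± 0.129 (adjusted p = 2.86e-11). These 3 remained called after rescaling, at -2.00, -1.74 and -1.41. GCH1 (-0.54, adjusted p = 0.000842; rescaled -0.20, adjusted p = 0.0659) and SLC18A2 (-0.37, adjusted p = 0.0131; rescaled -0.075, adjusted p = 0.524) did not. The SLC18A2 call was also lost without siMYCN replicate 2 or 3 or combined-knockdown replicate 3 (adjusted p = 0.071, 0.0566 and 0.0828), and with no filter (adjusted p = 0.058). DDC differed by -0.35 (adjusted p = 0.0564; -0.59 and 0.00105 without combined-knockdown replicate 1), and by -0.013 rescaled. It also passed the test without siHAND2 replicate 1 or 3 (adjusted p = 0.0463 and 0.0497).

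Against siHAND2, the combined knockdown was higher in SLC6A2 (0.91 ± 0.129, limma, adjusted p = 5.79e-06) and GCH1 (0.44 ± 0.126, adjusted p = 0.00755) and lower in MAOA (-0.57 ± 0.151, adjusted p = 0.004; rescaled -0.38, adjusted p = 0.00712). Thus 3 of the 6 were called, beside 40.3% of all genes tested. DDC (-0.22, adjusted p = 0.284) and SLC18A2 (-0.30, adjusted p = 0.0557) did not pass with all samples but did without combined-knockdown replicate 1 (adjusted p = 0.00953 and 0.0209) and, for SLC18A2, without replicate 2 (adjusted p = 0.0437). Rescaled, these 2 differences were -0.023 (adjusted p = 0.882) and -0.13 (adjusted p = 0.263). With no filter the GCH1 and MAOA calls were lost (adjusted p = 0.0654 and 0.0941). MAOA was thus higher with the MYCN siRNA than without it in cells lacking the HAND2 siRNA, and lower in cells that also received it. siMYCN exceeded siHAND2 in SLC6A2 (2.65 ± 0.129, adjusted p = 1.5e-14), DBH (2.21 ± 0.147, adjusted p = 7.18e-12), MAOA (1.50 ± 0.151, adjusted p = 1.73e-08) and GCH1 (0.98 ± 0.126, adjusted p = 1.23e-06), 4 of 6 beside 35% of all genes tested. DDC (0.14, 95% interval -0.187 to 0.459) and SLC18A2 (0.069, -0.184 to 0.322) did not pass this test, and rescaled they were -0.010 and -0.059.

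The difference between the HAND2 siRNA effect with the MYCN siRNA and the effect without it was tested directly as an interaction. It was called for 4 of the 6 genes, all negative, where 4.01% of all genes tested were called and the median over all genes tested was -0.18 (rescaled -0.0091). The largest was MAOA, at -1.78 ± 0.213 (limma, adjusted p = 1.43e-05; rescaled -1.60, adjusted p = 6.55e-05). DBH followed at -1.29 ± 0.208 (adjusted p = 0.00057; rescaled -1.18, adjusted p = 0.00342). DDC was at -0.92 ± 0.222 (adjusted p = 0.0168; rescaled -0.74, adjusted p = 0.0162) and GCH1 at -0.76 ± 0.179 (adjusted p = 0.0142; rescaled -0.57, adjusted p = 0.0135). Without siCtrl replicate 2, DDC (adjusted p = 0.0616) and GCH1 (adjusted p = 0.0563) lost the call. With no filter on low values MAOA alone of the 4 kept it, the other adjusted p values being 0.322 for DDC, 0.0878 for DBH and 0.185 for GCH1.

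SLC6A2 gave -0.60 ± 0.182 (95% interval -0.98 to -0.23, limma, adjusted p = 0.0593), which passed without combined-knockdown replicate 1 (-0.74, adjusted p = 0.00512). SLC18A2 gave -0.20 (-0.56 to 0.156, adjusted p = 0.485). The HAND2 siRNA effects behind these values were, without and with the MYCN siRNA, -0.29 and -2.07 for MAOA, -0.92 and -2.21 for DBH, 0.57 and -0.35 for DDC, 0.22 and -0.54 for GCH1, and -1.14 and -1.74 for SLC6A2. Not called were the MAOA and GCH1 effects without the MYCN siRNA and the DDC effect with it. Rescaled, the DDC effects were 0.72 and -0.013 and the GCH1 effects 0.38 and -0.20, and neither negative one was called. For TH both effects were positive, at 0.89 and 0.93 with the pseudocount of 1, on which their likeness depends as given above.

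**Figure D3:**
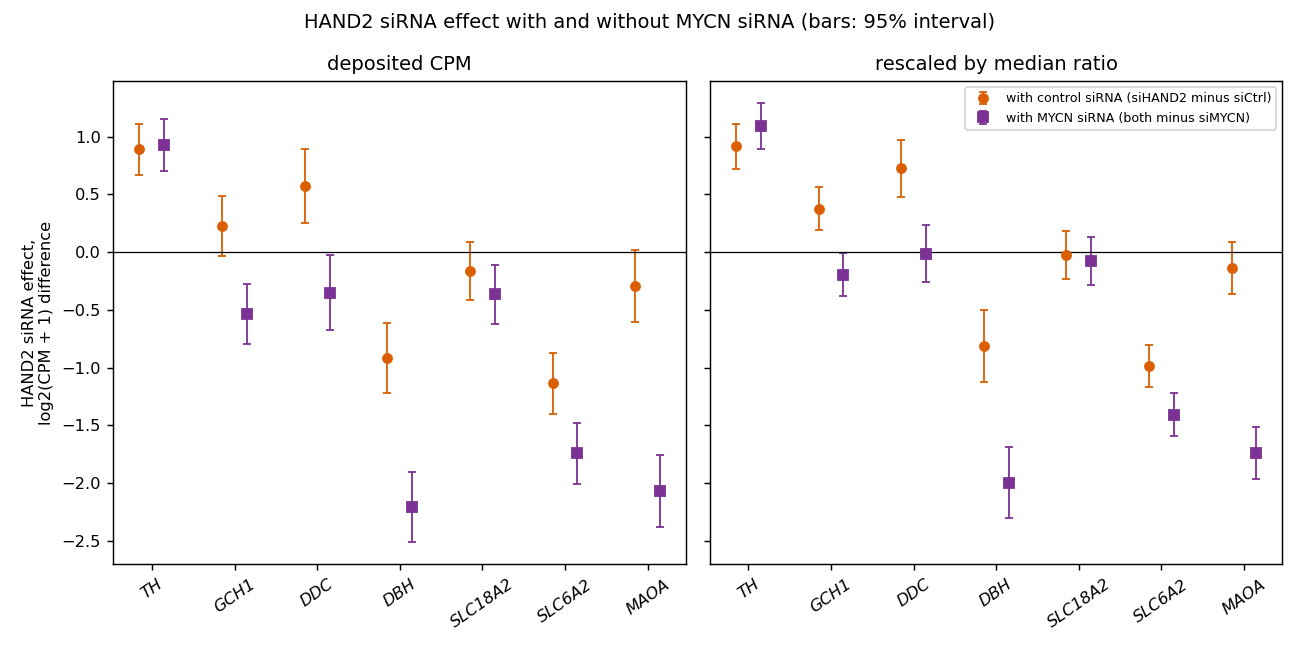
Effect of the HAND2 siRNA on the 7 detected genes (vertical axis, log2(CPM + 1) difference), with control siRNA (circles) and with MYCN siRNA (squares), on deposited (left) and rescaled (right) values; bars are 95% intervals from limma. The pairs for MAOA and DBH lie farthest apart on both scales, and those for TH lie above 0, close together at this pseudocount of 1.

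Beyond the 9 genes, 30 further genes of cofactor synthesis, precursor and metal supply, amine uptake and breakdown were listed in the table, of which 18 passed the filter. Against siCtrl, 4 were called higher and 3 lower with siMYCN, 0 and 10 with siHAND2, and 0 and 14 with both siRNAs, with rescaled counts of 5 and 5, 2 and 6, and 2 and 8. Over the whole table tested, the matching shares (higher, then lower) were 17.4% and 16.3% with siMYCN, 12.3% and 30.4% with siHAND2, and 17.4% and 50.1% with both siRNAs. After rescaling they were 25.4% and 22.5%, 25.9% and 24.9%, and 37.7% and 33%. Their median log2 differences were -0.098, -0.32 and -0.45, against 0.0056, -0.14 and -0.28 for all genes tested. All 7 genes of the tetrahydrobiopterin list were tested, and 6 were called lower with siHAND2 and 6 with both siRNAs (4 and 4 rescaled), beside 30.4% and 50.1% of all genes tested (24.9% and 33% rescaled). GCHFR, the protein that mediates feedback inhibition of GCH1, rose from 22.3 ± 2.30 CPM in siCtrl to 40.3 ± 1.97 with siMYCN and fell to 8.55 ± 0.945 with siHAND2 and 13.8 ± 1.36 with both siRNAs. SPR, which makes the final step of the cofactor's synthesis, was at 21.6 ± 0.395, 16.0 ± 0.103, 13.4 ± 1.69 and 8.37 ± 1.51 CPM in siCtrl, siMYCN, siHAND2 and the combined knockdown, called lower in each knockdown. QDPR, which regenerates the cofactor, was at 20.9 ± 0.908, 23.3 ± 0.551, 13.5 ± 1.45 and 10.8 ± 2.10 CPM, called lower in the groups with the HAND2 siRNA.

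Of the 8 genes of tyrosine, copper and ascorbate supply, 5 were tested. SLC7A5, a transporter of large neutral amino acids, was lower with siMYCN (log2 difference -0.55, limma, adjusted p = 0.00613) and, rescaled only, higher with siHAND2 (0.45, adjusted p = 0.00216; deposited 0.29, adjusted p = 0.126). Also lower with siMYCN was SLC16A10, an aromatic amino acid transporter (-0.64, adjusted p = 0.0003; -1.25 with both siRNAs, adjusted p = 2.58e-09). ATP7A, which supplies copper to secreted enzymes, was higher with siMYCN (0.46, adjusted p = 0.00708) and, rescaled only, with both siRNAs (0.25, adjusted p = 0.0152; deposited -0.098, adjusted p = 0.507). Among genes of adrenaline synthesis and other amine uptake, SLC29A4, a plasma membrane monoamine transporter, was the 1 of 6 tested. It had 90.7 ± 1.12 CPM in siCtrl, 140 ± 6.53 with siMYCN, 96.3 ± 3.78 with siHAND2 and 98.4 ± 26.6 with both siRNAs (siMYCN log2 difference 0.62, adjusted p = 0.000953). Rescaled, it was also called higher with siHAND2 (0.24, adjusted p = 0.0104) and with both siRNAs (0.44, adjusted p = 6.21e-05). PNMT, which makes adrenaline, averaged 0.158 to 0.312 CPM over the groups and was not tested.

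Of 9 other breakdown genes 5 were tested, all called lower with both siRNAs and 3 of them after rescaling, beside 50.1% and 33% of all genes tested. ALDH2, the mitochondrial aldehyde dehydrogenase that can follow monoamine oxidase, had 49.3 ± 1.46 CPM in siCtrl, 56.7 ± 1.79 with siMYCN, 23.2 ± 1.15 with siHAND2 and 20.2 ± 6.45 with both siRNAs (limma, adjusted p = 1.91e-06 and 1.97e-08 for the last 2). AKR1B1 and AKR1A1, which reduce aldehydes, differed by -0.93 and -0.64 with both siRNAs (adjusted p = 2.65e-07 and 7.6e-05). Of 14 adrenergic and dopamine receptor genes, 2 were tested. DRD2, the dopamine D2 receptor, had 2.71 ± 0.0699 CPM in siCtrl, 4.25 ± 0.459 with siMYCN, 0.662 ± 0.217 with siHAND2 and 0.527 ± 0.206 with both siRNAs, and all 3 differences were called (adjusted p = 0.0044, 9.95e-08 and 3.53e-09). The other tested receptor gene, ADRA2C, named after its values were seen, was not called against siCtrl on deposited values. Rescaled, it was called higher with siHAND2 (0.31, limma, adjusted p = 0.00896) and with both siRNAs (0.21, adjusted p = 0.0483).

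**Figure D4:**
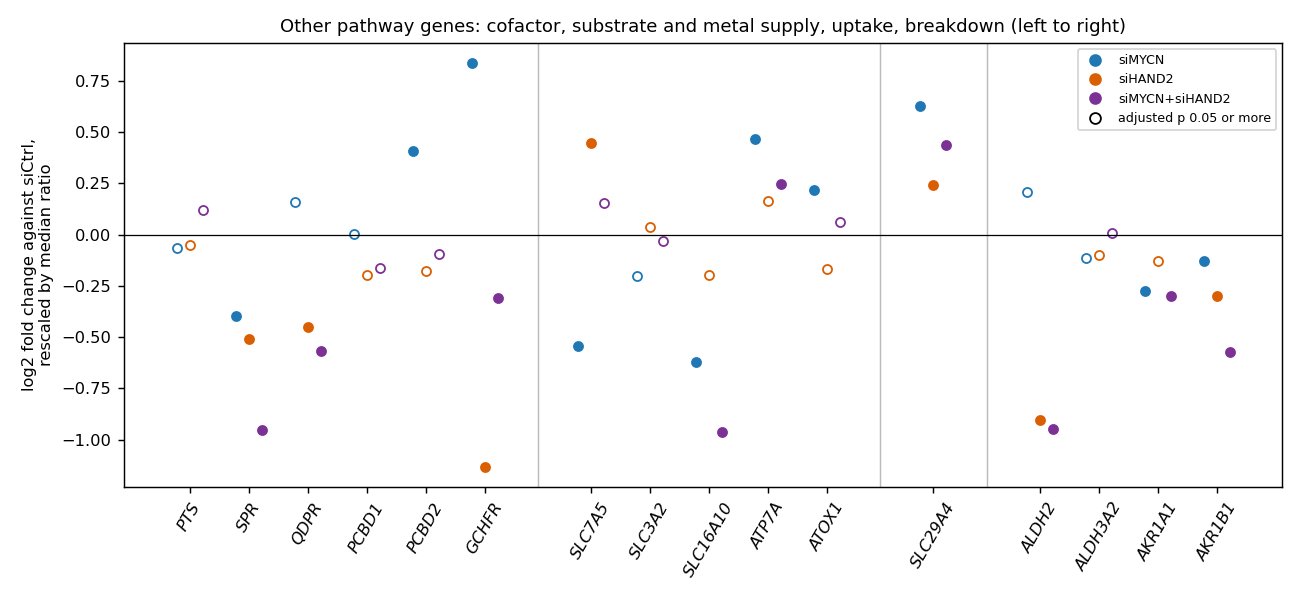
Rescaled log2 fold change against siCtrl (vertical axis) of 16 of the 18 tested pathway genes beyond the 9, with siMYCN, siHAND2 and siMYCN+siHAND2; filled points have an adjusted p under 0.05 and vertical lines divide the lists. GCHFR is above 0 with siMYCN and below 0 in the other knockdowns, and SPR and AKR1B1 are below 0 in all 3.

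Of 12 transcription factors known to act on TH or DBH, 10 were tested, with 6 called higher and 0 lower with siMYCN, and 2 higher and 4 lower in both siHAND2 and the combined knockdown. HAND2, the target of the siRNA, is in this list and is 1 of the 4 lower in each, a call fixed by the design. Rescaled, the counts were 7 and 0, 5 and 4, and 6 and 4. These stand against the shares of all genes given above for the pathway, such as 17.4% higher with siMYCN (25.4% rescaled) and 30.4% lower with siHAND2 (24.9% rescaled). PHOX2A, a homeodomain activator of the DBH promoter, had 68.5 ± 5.32 CPM in siCtrl, 116 ± 7.58 with siMYCN, 16.0 ± 1.02 with siHAND2 and 27.1 ± 6.96 with both siRNAs (limma, adjusted p = 0.000128, 9.39e-12 and 3.41e-09). HAND1, a paralogue of HAND2, had 18.4 ± 0.711, 27.4 ± 1.16, 3.01 ± 0.387 and 3.08 ± 0.614 CPM in the same order. The 2 genes called higher with siHAND2 were ISL1 and INSM1, named after their values were seen. ISL1, a LIM-homeodomain factor of sympathetic neurons, had 21.3 ± 0.920, 31.0 ± 1.40, 47.2 ± 1.02 and 64.2 ± 7.42 CPM, the same group order as TH. INSM1 had 49.4 ± 5.52, 51.9 ± 3.60, 89.5 ± 6.61 and 70.5 ± 18.5 CPM. It was highest with siHAND2, an order unlike that of TH.

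As markers of other transmitters, 3 of 11 genes were tested. CHAT, which makes acetylcholine, had 33.6 ± 2.08 CPM in siCtrl, 26.6 ± 1.43 with siMYCN, 30.0 ± 0.427 with siHAND2 and 21.7 ± 4.57 with both siRNAs. SLC18A3, which loads acetylcholine into vesicles, had 19.8 ± 1.09, 27.9 ± 1.41, 13.5 ± 1.63 and 12.5 ± 3.55 CPM. SLC17A7, a vesicular glutamate transporter, rose from 1.13 ± 0.478 CPM in siCtrl to 3.73 ± 2.01 with siHAND2 and 4.14 ± 1.79 with both siRNAs (limma, adjusted p = 0.000233 and 1.91e-05).

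For each of the 6 tested genes, the genes with the most similar profile were found among the 10187 other genes with a mean of at least 5 CPM by the root mean square distance of rescaled log2 changes from the siCtrl mean over the 9 knockdown samples, as a description. GCH1 was closest to DPP6 (distance 0.0786 log2 units) and PCSK1N (0.117), and DPP6 changed by 1.22, 0.33 and 0.99 with siMYCN, siHAND2 and the combined knockdown, where GCH1 changed by 1.21, 0.38 and 1.01. SLC18A2 lay 0.0705 from FITM2 and 0.0752 from COG8. DDC was 0.132 from C14orf144 and 0.168 from ATP6V0E2. The other 3 genes had no neighbour as near. SLC6A2 lay 0.265 from CD9 and 0.29 from STRA6, DBH 0.289 from RFTN1 and 0.294 from PARM1, and MAOA 0.318 from PDE4D and 0.325 from NEUROG2.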

How the data were processed

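Per the submitters' processing notes, STAR 2.5.1 and Partek were used with hg19 (GRCh37). The authors deposited CPM for 27514 genes in 12 samples, with 0.0001 added to each value per the values in the table. Samples were grouped by title, and genes and lists were chosen with earlier results of these data known. Reads per value were estimated from the smallest CPM step. Of values below 20 reads, 88.9 to 90.5% came out whole (tolerance 0.05 reads), so a count model was not used. Depth sets the precision: 3 reads equal 0.0468 to 0.0949 CPM.

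Genes averaging 1 CPM or more (12680) were fitted as log2(CPM + 1) with limma 3.58.1 (trend, R 4.3.3) in 1 model of 4 groups, two-sided, with Benjamini-Hochberg adjustment over all genes tested in each of 7 contrasts. Fold changes on this scale understate low genes. Called means adjusted p under 0.05. An exact permutation test of 3 against 3 samples cannot go below p = 0.1 and is not used. Scripts were tested on simulated data. Listed genes beyond the 9 are named if called, up to 4 per list by largest change. Some listed genes that this rule names are not reported here. Alternatives were rescaling, pseudocount, filter, groups fitted, trend, replicate block and leaving out each sample. Same-numbered samples deviated together (correlation above 0.1 in all 3 pairs) between siMYCN and siCtrl (0.147 to 0.440) and between siMYCN and siHAND2 (0.137 to 0.330), and not in the other comparisons.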

Additional observations from a re-analysis of the deposited data

Results flagged for a closer look

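For 4 genes the effect of the HAND2 siRNA differed between cells with and without the MYCN siRNA, by the interaction term of limma (Benjamini-Hochberg adjusted over 12680 genes). The difference was -1.78 for MAOA (adjusted p = 1.43e-05), -1.29 for DBH (adjusted p = 0.00057), -0.92 for DDC (adjusted p = 0.0168) and -0.76 for GCH1 (adjusted p = 0.0142), all on the log2(CPM + 1) scale with 3 samples in each group. The same term had a median of -0.18 over all genes tested (rescaled -0.0091), of which 4.01% were called (6.14% rescaled). Without siCtrl replicate 2, DDC and GCH1 lost the call. With no filter on low values, MAOA alone kept it.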

How the results depend on the processing

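Of 1107 recomputed values of single genes, 1008 kept their direction and side of the threshold, 44 lost the call, 25 gained it and 30 changed sign. In many of these the direction could not change. Another filter, the trend, the block alone or leaving out a sample of a group not compared leaves the difference itself as it was. The count of 1008 is therefore no measure of robustness. Genes called between siMYCN and siCtrl numbered 4273, and 6963 with those groups fitted alone, 6480 with the replicate block and rescaling, and 6501 rescaled without combined-knockdown replicate 3. Between siMYCN and siHAND2 they numbered 4443, and 6730 fitted alone. For the interaction there were 508, and 779 (median ratio) or 795 (sum of listed genes) rescaled, 88 with no filter, 1282 with the replicate block, 1262 with block and rescaling, and 263 to 4443 with 1 sample left out, the highest without combined-knockdown replicate 1. The 4 called interactions among the 9 genes became 1 with no filter and 2 to 5 with 1 sample left out. Called genes of the 9 became 5 with siHAND2 at a mean of at least 0.1 CPM with rescaling (TH and GCH1 added), 3 with both siRNAs against siMYCN with rescaling, also without combined-knockdown replicate 3, and 1 against siHAND2 with no filter (3 to 5 with 1 sample left out).

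Sign changes concerned differences that were not called. SLC6A2 with both siRNAs became 0.11 by median ratio (also with the block or the lower filter), 0.10 by sum and 0.16 by median ratio without combined-knockdown replicate 3. DBH between the combined knockdown and siHAND2 became 0.090, 0.099 and 0.19 under the same settings, and ran from -0.11 to 0.14 with 1 sample left out (0.0067 without siHAND2 replicate 2 and 0.066 without siHAND2 replicate 1). DDC there ran from -0.45 to 0.056 with 1 sample left out, the latter without combined-knockdown replicate 3, 0.14 also rescaled, and 0.15 against siMYCN. Between siMYCN and siHAND2, DDC became -0.010 and SLC18A2 -0.059 when rescaled, with or without the block, that replicate or the lower filter. SLC18A2 with siMYCN ran from -0.15 to 0.0021 with 1 sample left out, the latter without siMYCN replicate 1. The TH interaction became -0.58 with a pseudocount of 0.1 and ran from -0.092 (without combined-knockdown replicate 1) to 0.15 with 1 sample left out. The cause was not tested.

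The replicate block changed no call of the 9 genes between siMYCN and siCtrl or siHAND2. Elsewhere the same-numbered samples did not deviate together in every pair, with correlations of -0.0737 to 0.423 between siHAND2 and siCtrl. The column names number the samples replicate by replicate, and what same-numbered samples share is not given in the labels. There the block added MAOA with siHAND2 (limma, adjusted p = 0.0445), DDC against siMYCN (adjusted p = 0.0194), SLC18A2 against siHAND2 (adjusted p = 0.036) and the SLC6A2 interaction (adjusted p = 0.012). Depth limits TH, with 3 reads in each of 2 siCtrl samples.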
